A study of Sus scrofa with 12 samples.

Results

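Ribosome biogenesis is the making of ribosomal RNA in the nucleolus and its processing, modification and packing with ribosomal proteins into the small and the large subunit. RNA polymerase I makes the precursor RNA, small nucleolar ribonucleoproteins (snoRNPs) modify it, the processome shapes the small subunit, and helicases and GTPases drive the large subunit. In the gut lining, dividing crypt cells are known for a high demand for new ribosomes. The 49 genes described here are factors of this pathway, chosen by name with earlier results of these data known. Each was represented by its probe set (a group of array probes for 1 transcript) with the highest mean over all arrays. The choice of probe set used no other measured value. Of the 49, 45 had a probe set under their symbol among 13755 symbols on the array, and 44 lay above the filter on low signal. FBL, NHP2, NOP10 and EBNA1BP2 had no probe set under these symbols and were not analysed here. NOP56, a core protein of the box C/D snoRNP, had a probe set with a log2 value between 1.44 and 2.34, above the array background on 1 of 12 arrays, and was not tested.

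The study compared the duodenal mucosa, the inner lining of the first part of the small intestine, of 12 pigs (Sus scrofa) aged 140 days. Feed efficiency (FE), the growth a pig gains from its feed, was labelled high in 6 pigs and low in 6, with 3 males and 3 females in each group. The groups differ in no other labelled way, and all pigs were sampled from the same tissue without a stated treatment. Each pig gave 1 Affymetrix Snowball array, so n counts pigs. Values are log2 values as deposited, and each difference is the high FE mean less the low FE mean, or the male mean less the female mean, with the standard error (SE) of the limma fit. A difference was called at an adjusted p under 0.05 over all 33405 probe sets tested.

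Array medians lay between 3.83 and 3.91. The array background, the median of 69 probe sets that the array names as background, lay between 2.16 and 2.53. All 11 mature enterocyte markers with a probe set were above the array background on all 12 arrays, as were all 11 T and NK cell markers and all 12 smooth muscle markers, so the samples held more than epithelium. The mean of the pancreatic acinar markers stood apart in low FE pig 6, at a log2 value of 7.48, against 4.98 to 5.53 in the other pigs. In bulk tissue, fewer cells of a type and less RNA per cell cannot be told apart.

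High FE pigs had somewhat more signal for most of these genes, by small amounts that did not pass the test. Of 44 members, 32 had a higher mean in high FE, against 46% of all probe sets tested. The median difference was 0.14 on the log2 scale, against -0.02 over all probe sets. None of the 44 passed in limma, and 0% of all probe sets did. At an unadjusted p under 0.05 there were 9 members, 8 higher and 1 lower in high FE, which is 20.5% of members against 5.99% of all probe sets (2.65% higher and 3.34% lower). AATF and TSR1 were named by an earlier ranking of these data for this same contrast, so their share in these counts is no support. Without them, 30 of 42 members were higher, 7 of 42 had an unadjusted p under 0.05 and the median difference was 0.10. These 42 were also chosen with earlier results of these data known, so their counts are a description. Leaving out high FE pig 6 turned the count of 9 into 17. Leaving out high FE pigs 1 and 5, whose arrays had the lowest background, turned it into 4. Without low FE pig 6, 7 members had an unadjusted p under 0.05 and the median difference was again 0.14. The share of all probe sets at this threshold was not computed for these fits. The changed counts are thus not read as particular to the members.

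**Figure D1:**
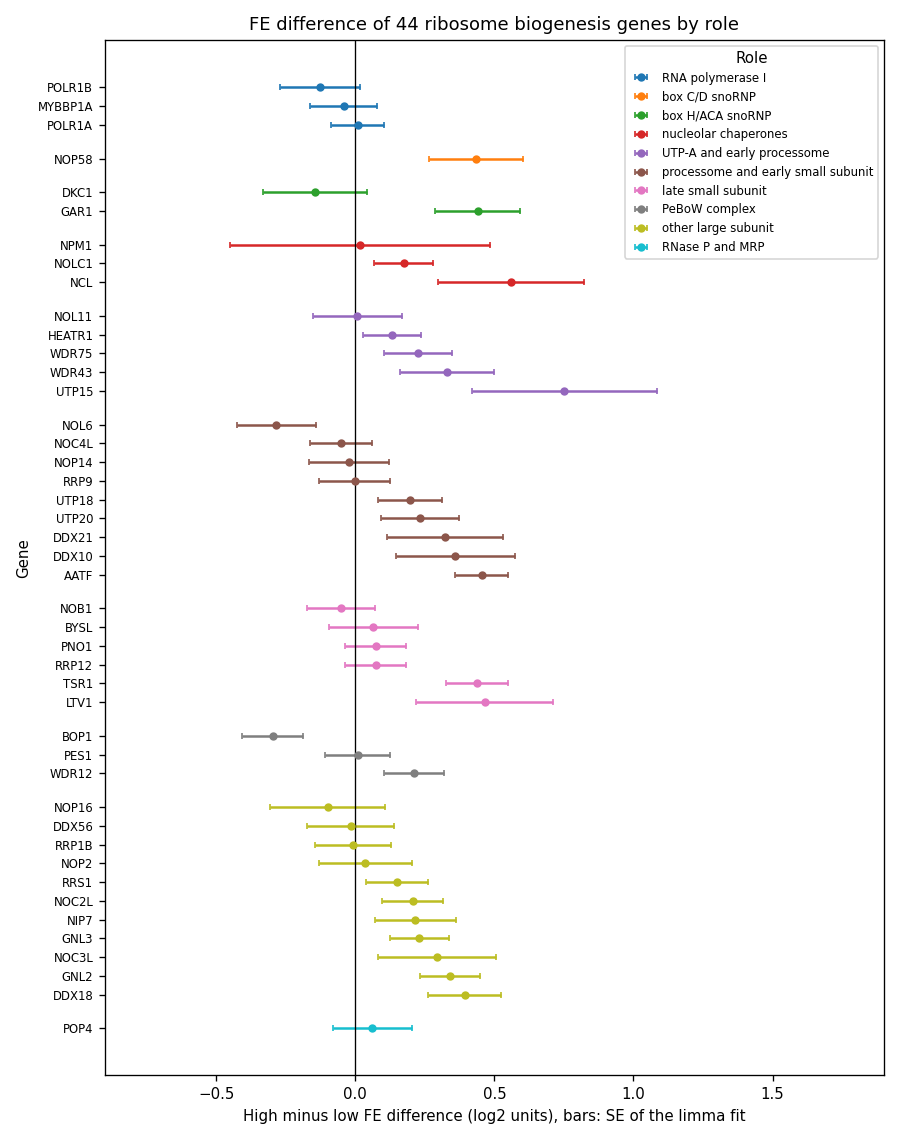
Difference between high and low FE (x axis, log2 units) for each of the 44 members tested (y axis), coloured by role, with bars for the SE of the limma fit over 12 pigs. Most points lie right of 0, from -0.30 for BOP1 to 0.75 for UTP15, and none passed the adjusted threshold.

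AATF, which acts in the assembly of the small subunit, had log2 values from 6.12 to 6.52 in high FE pigs, with a median of 6.37, and from 5.81 to 5.99 in low FE pigs, with a median of 5.89. The 6 high FE pigs were all above the 6 low FE pigs. The difference was 0.45 ± 0.10 (SE), a ratio of 1.37, and it was 0.56 in males and 0.35 in females. TSR1, a factor of late small subunit maturation, ranged from 6.24 to 6.70 in high FE (median 6.42) and from 5.84 to 6.19 in low FE, with a median of 5.97. These groups did not overlap either, and the difference was 0.44 ± 0.11 (SE). They were the 2 members without overlap, where 0.0898% of all probe sets were higher in high FE without overlap. Both were chosen for this pattern, so it is given as a description.

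GNL2, a GTPase of large subunit assembly, ranged from 6.55 to 7.12 in high FE (median 7.0) and from 6.35 to 6.80 in low FE, with a median of 6.54. High FE pig 6 was the one high FE pig within the low FE range. The difference was 0.34 ± 0.11 (SE), with an unadjusted p of 0.00887 and an adjusted p of 0.753. DDX18, an RNA helicase of the large subunit, ranged from 5.97 to 6.51 in high FE and from 5.69 to 6.14 in low FE, with medians of 6.31 and 5.89. Here too the ranges overlapped through high FE pig 6 alone. The difference of 0.39 ± 0.13 (SE, adjusted p 0.753) came to 0.25 once the fit held a term for array background. The GNL2 difference was 0.16 when averaged with its second probe set, which had a mean of 1.72 and lay below the filter.

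GAR1, a core protein of the box H/ACA snoRNPs that guide pseudouridylation, ranged from 4.48 to 5.51 in high FE (median 4.88) and from 4.25 to 4.91 in low FE, with a median of 4.39. The groups overlapped, with high FE pig 1 far above the rest. The difference was 0.44 ± 0.15 (SE, adjusted p 0.753), and 0.29 without high FE pigs 1 and 5. BOP1, of the PeBoW complex that processes large subunit RNA, went the other way, from 5.20 to 5.52 in high FE and from 5.37 to 5.88 in low FE, with medians of 5.34 and 5.65. Low FE pig 2, at 5.37, lay below high FE pigs 3 and 6, so the groups overlapped, and the difference was -0.30 ± 0.11 (SE, adjusted p 0.753). BOP1 was the one member at an unadjusted p under 0.05 with less signal in high FE.

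**Figure D2:**
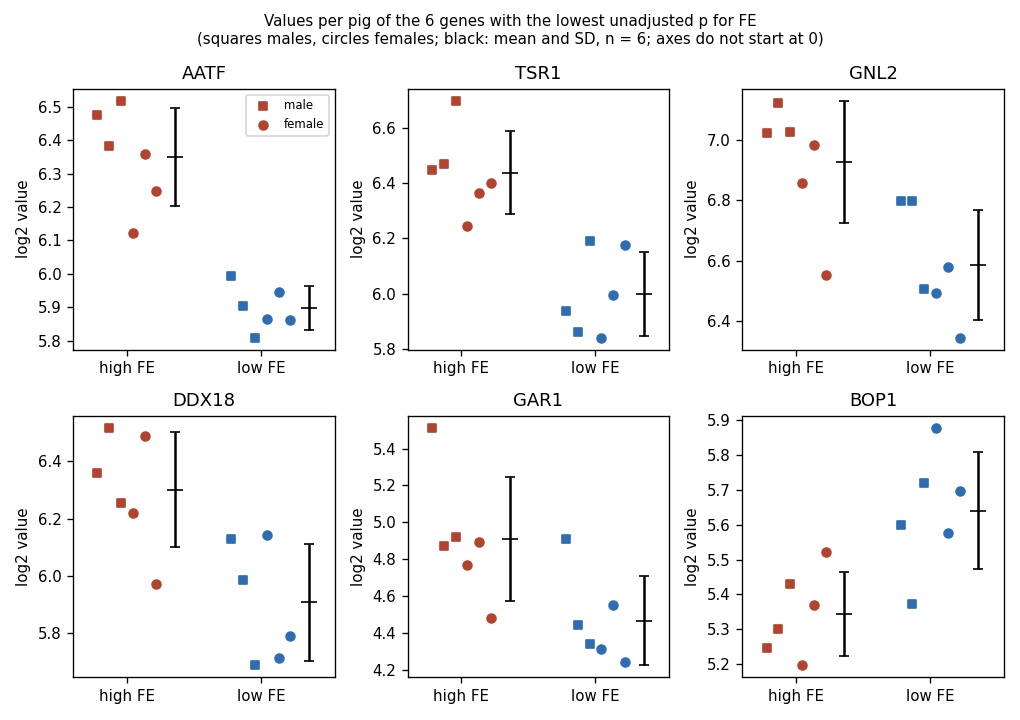
Log2 values per pig (y axis) in high and low FE (x axis) of the 6 members with the lowest unadjusted p for FE; squares are males, circles females, and black marks the mean with SD (n = 6). AATF and TSR1 show no overlap of the groups, and BOP1 is lower in high FE.

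By role, the RNA polymerase I group showed little difference. Its subunits POLR1A and POLR1B differed by 0.01 ± 0.10 (SE) and -0.13 ± 0.14 (SE), and MYBBP1A, a nucleolar regulator of transcription, by -0.04 ± 0.12 (SE). Of the snoRNP proteins, NOP58 of the box C/D class had values from 6.98 to 7.49 in high FE and from 6.17 to 7.18 in low FE. It differed by 0.44 ± 0.17 (SE, adjusted p 0.753), with the groups overlapping. DKC1, the pseudouridine synthase of the box H/ACA class, differed by -0.15 ± 0.19 (SE). Among the nucleolar chaperones, NCL differed by 0.56 ± 0.26 (SE) and NOLC1 by 0.17 ± 0.11 (SE). NCL had values from 7.53 to 9.21 in high FE and from 7.42 to 7.97 in low FE, so the high FE pigs spread the wider. NPM1 differed by 0.02 ± 0.47 (SE), the widest error of all members, and its probe set was above the array background on 10 of 12 arrays.

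All 5 members of the early processome complex that binds the nascent precursor RNA were higher in high FE, and their median difference was 0.23. UTP15 differed by 0.75 ± 0.33 (SE), at values from 2.15 to 4.85 in high FE and from 2.44 to 3.35 in low FE. UTP15 thus lay near the array background in several pigs, and above it on 10 of 12 arrays. WDR43 differed by 0.33 ± 0.17 (SE), WDR75 by 0.23 ± 0.12 (SE), HEATR1 by 0.13 ± 0.10 (SE) and NOL11 by 0.01 ± 0.16 (SE). Of 9 other early small subunit factors, 5 were higher. The helicases DDX10 and DDX21 differed by 0.36 ± 0.21 (SE) and 0.32 ± 0.21 (SE), and the processome proteins UTP20 and UTP18 by 0.23 ± 0.14 (SE) and 0.19 ± 0.12 (SE). NOL6, also of the processome, differed by -0.28 ± 0.14 (SE), and NOC4L, NOP14 and RRP9 by -0.05, -0.02 and -0.0023.

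Of 6 late small subunit factors, 5 were higher, with a median of 0.07. Beside TSR1, LTV1 differed by 0.46 ± 0.25 (SE), while RRP12, PNO1 and BYSL differed by 0.07, 0.07 and 0.06, and the nuclease NOB1 by -0.05. In the PeBoW complex the 3 subunits went apart, with BOP1 at -0.30, PES1 at 0.01 ± 0.12 (SE) and WDR12 at 0.21 ± 0.11 (SE). Of 11 other large subunit factors, 8 were higher, with a median of 0.21. GNL3 (nucleostemin), a GTPase of dividing cells, differed by 0.23 ± 0.11 (SE, unadjusted p 0.0498), NOC3L by 0.29 ± 0.21 (SE), NIP7 by 0.22 ± 0.15 (SE), NOC2L by 0.21 ± 0.11 (SE) and RRS1 by 0.15 ± 0.11 (SE). NOP2, an RNA methyltransferase, RRP1B, DDX56 and NOP16 lay between -0.10 and 0.04. POP4, a subunit of RNase P and RNase MRP, differed by 0.06 ± 0.14 (SE).

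Other genes of the pathway, from a list assembled with earlier results of these data known, leaned the same way by less. Of 111 tested, 67 were higher in high FE, the median difference was 0.08, and 0 passed in limma. At an unadjusted p under 0.05 there were 8 higher and 0 lower, or 7.21% against 5.99% of all probe sets. Large subunit factors had 25 of 31 higher, with a median of 0.18. Among them LSG1, a GTPase of late large subunit maturation, differed by 0.45 ± 0.17 (SE) and RPF1 by 0.40 ± 0.16 (SE). The processome had 15 of 24 higher, with UTP3 at 0.43 ± 0.16 (SE) and PWP2 at 0.27 ± 0.10 (SE). PWP2 had values from 5.82 to 6.03 in high FE and from 5.35 to 5.81 in low FE, without overlap.

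The nuclear exosome, which trims precursor RNA, had 8 of 13 genes higher, with its nuclease DIS3 at 0.41 ± 0.17 (SE) and the helicase SKIV2L2 at 0.38 ± 0.19 (SE). SnoRNP assembly factors had 6 of 9 higher, with NUFIP1 at 0.37 ± 0.18 (SE) and TGS1 at 0.24 ± 0.19 (SE), and RNA polymerase I factors 7 of 12, with TTF1 at 0.26 ± 0.12 (SE) and TAF1B at 0.25 ± 0.16 (SE). Late small subunit factors had 2 of 4 higher, with RIOK1 at 0.24 ± 0.15 (SE) and TSR2 at -0.08 ± 0.12 (SE). RNase P and MRP subunits had 3 of 9 higher, with RPP21 at -0.25 ± 0.12 (SE) and RPP30 at 0.26 ± 0.16 (SE). The MYC network, known as a driver of ribosome biogenesis genes, had 1 of 9 higher and a median of -0.11. MYCN was at -0.23 ± 0.11 (SE) and MXD4, a repressor of that network, at -0.25 ± 0.13 (SE). MYC itself was at -0.0036 ± 0.09 (SE), and the 1 higher gene was MXD1, at 0.27 ± 0.15 (SE). The list holds repressors too, so its count gives no direction for the driver. None of the 16 genes named for the lowest p of their list passed in limma, with adjusted p from 0.753 to 0.864. Neither did MYC (0.996) or MXD1 (0.753).

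The members' mean per pig showed how far the pigs differed as a whole. It ranged from 5.85 to 6.14 in high FE (median 6.06) and from 5.82 to 5.97 in low FE, with a median of 5.88. The groups overlapped through high FE pigs 4 and 6, the latter with 5.85. High FE pig 6 was the lowest of its group for 19 of 44 members, and no other high FE pig was lowest for more than 8. Its array background, 2.46, was the highest of the high FE arrays.

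The members' mean moved with the array background. Over 12 pigs Pearson's r was -0.75 and Spearman's rho -0.85, r was -0.72 without the 2 pigs farthest from the median background, and -0.81 after the mean of each combination of FE and sex was removed. Each point takes both values from 1 array. The array background ranged from 2.16 to 2.46 in high FE (median 2.30) and from 2.25 to 2.53 in low FE, with a median of 2.38. Single members correlated with it from -0.84 to 0.62, with a median of -0.36 and 28 of 44 negative, against a median of 0.08 and 44.7% negative over all probe sets. With the array background as a term, 35 of 44 members were higher in high FE, the median difference was 0.12, and 7 members had an unadjusted p under 0.05, where 3.39% of all probe sets did. AATF then differed by 0.41 and TSR1 by 0.50, while NCL differed by 0.22, DDX21 by 0.07 and DDX10 by 0.11. The difference of 9 members took the other sign with this term: NPM1 (-0.33), PNO1 (-0.01) and POLR1A (-0.0067) became negative, and DKC1 (0.01), POLR1B (0.02), MYBBP1A (0.03), NOC4L (0.03), RRP9 (0.07) and DDX56 (0.07) positive.

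**Figure D3:**
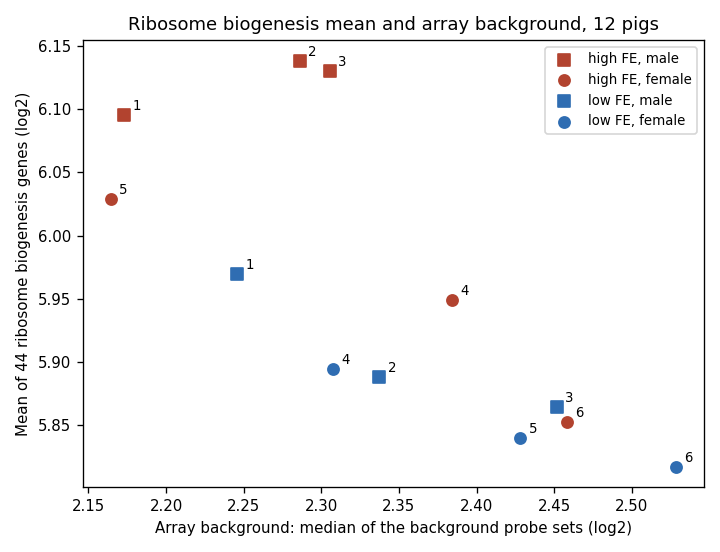
Mean log2 value of the 44 members (y axis) against the array background (x axis, log2) for 12 pigs, with the pig's number in its FE group; colour gives FE and shape gives sex. The means fall from 6.14 to 5.82 as background goes up, with r of -0.75, and the 3 high FE males lie at the top.

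Marker lists of other cell types also differed in mean between the FE groups, but none of their genes passed in limma and the list means overlapped in all 9 lists. At an unadjusted p under 0.05 in limma there were 3 goblet cell and 5 smooth muscle markers, all lower in high FE. There were also 2 proliferation markers, both higher. These are 42.9%, 41.7% and 11.1% of the markers tested, against 5.99% of all probe sets. The other lists had 0. HSPB6 and CASQ2 had the lowest unadjusted p of the smooth muscle list in limma, 0.00352 and 0.00382. The lists were chosen with earlier results of these data known, so the shares are a description. All 7 goblet cell markers tested had lower means in high FE, with list means from 9.62 to 10.19 in high FE and 9.95 to 10.45 in low FE. All 7 Brunner gland and gastric-type markers had lower means, with list means of 6.31 to 9.54 and 7.35 to 11.37. The 11.37 was that of low FE pig 3, a male. In males 7 of 7 were lower, with a median difference of -1.40, and in females 5 of 7, with -0.14. All 10 pancreatic acinar markers tested had lower means, with 4.98 to 5.34 in high FE and 5.21 to 7.48 in low FE. The 7.48 was that of low FE pig 6, a female, and the next low FE pig had 5.53. Within the sexes, 6 of 10 were lower in males and 9 of 10 in females. PNLIP was above the array background on 4 of 12 arrays and PNLIPRP1 on 9. The brightest of the list, SPINK1 and PNLIPRP2, differed by -0.04 and -0.13. Of 12 smooth muscle markers 10 had lower means, with 7.35 to 7.77 and 7.35 to 8.17, and of 6 B and plasma cell markers 4, with 6.09 to 6.74 and 6.18 to 6.54. Of 8 crypt stem cell markers 6 had lower means. Higher means in high FE were found for 11 of 18 proliferation markers, with 5.87 to 6.47 and 5.78 to 6.31, for 8 of 11 mature enterocyte markers and for 8 of 11 T and NK cell markers. The T and NK cell markers differed by sex, with 2 of 11 higher in high FE in males and 10 of 11 in females. Their list means had a median of 6.48 in high FE and 6.58 in low FE.

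Over 12 pigs, the members' mean correlated with the pancreatic acinar list at an r of -0.47 and a rho of -0.73, with r of -0.40 without the 2 farthest pigs. The same values were -0.43, -0.51 and -0.46 for smooth muscle, -0.41, -0.29 and -0.19 for B and plasma cells, and -0.27, -0.23 and -0.33 for T and NK cells. They were -0.24, -0.13 and -0.0044 for Brunner gland, -0.21, -0.25 and -0.16 for goblet cells, and 0.47, 0.46 and 0.18 for proliferation. For mature enterocytes they were 0.16, 0.19 and -0.25, and for crypt stem cells 0.0072, 0.077 and 0.13. After the means of FE and sex combinations were removed, the r was -0.65 for B and plasma cells, and for the other lists it lay between -0.43 and 0.35. The part of these cell types in the FE difference was not tested.

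The members did not vary as one block. The correlation of each member with the mean of the others over 12 pigs had a median of 0.44, was above 0.6 for 17 of 44 and negative for 14. It was 0.92 for GNL2, 0.88 for GNL3, 0.85 for DDX18, 0.84 for AATF and 0.82 for UTP20 and DDX10. At the other end were BOP1 with -0.64, NOL6 with -0.39, POLR1B with -0.35 and NOB1 with -0.34. After the means of the 4 combinations of FE and sex were removed the median was 0.11, with DDX18 at 0.84, RRS1 at 0.79 and GNL2 at 0.79 at one end and NOP2 at -0.82, DKC1 at -0.66 and RRP9 at -0.62 at the other. AATF was at 0.39 and TSR1 at -0.41. All points come from the same 12 arrays. The pooled SD within a combination of FE and sex had a median of 0.22 over the members, against 0.30 over all probe sets.

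**Figure D4:**
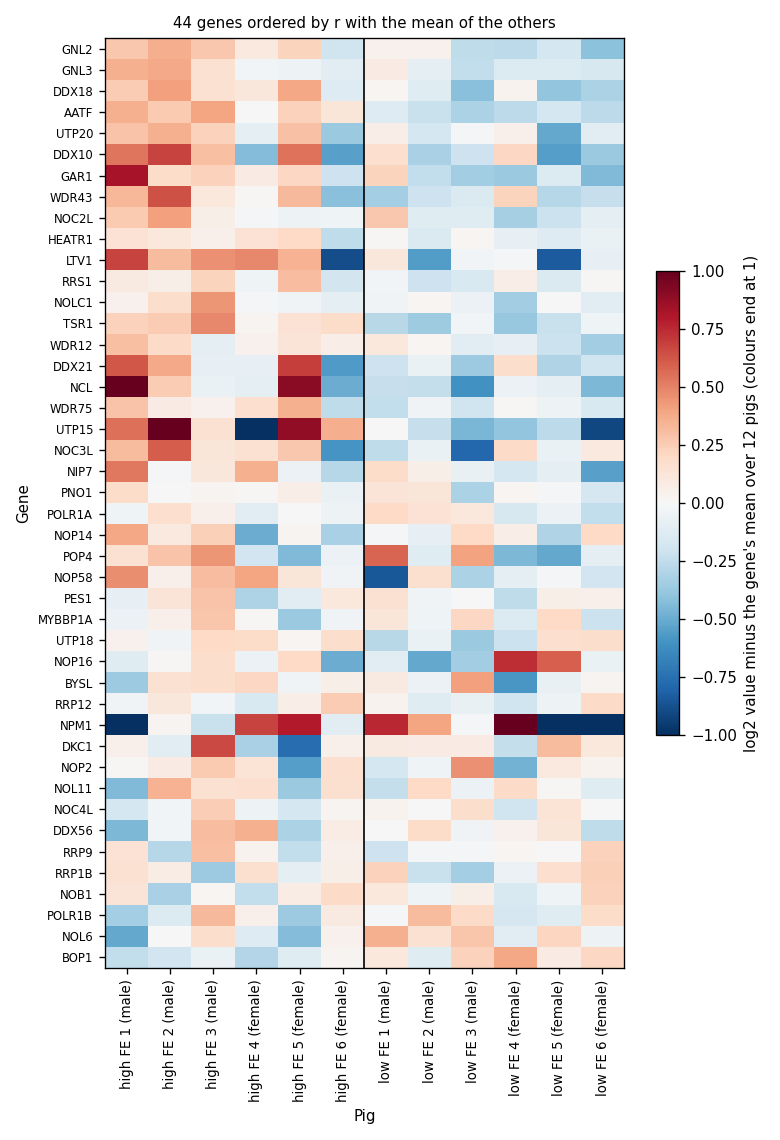
Log2 value minus the gene's mean over 12 pigs (colour, ending at 1 in either direction) for the 44 members (rows, ordered by r with the mean of the others) in each pig (columns, high FE left). The order runs from GNL2, with r of 0.92, to BOP1, with -0.64.

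The 10 genes outside the list whose values, after removing the means of FE and sex combinations, were most like the members' mean over 12 pigs were ARCN1, CHD4, ZNF664, LRRC58, DCAF10, NLK, ETV3, APPL2, AFF4 and ITGA2, out of 12223 genes. Their r lay between 0.92 and 0.96. None of the 10 belongs to the pathway or marker lists used here. Their FE differences lay between -0.0048 for ARCN1, a coat protein of Golgi vesicles, and 0.32 for AFF4, a scaffold of transcription elongation, with adjusted p from 0.753 to 0.996.

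Within each sex the FE groups hold 3 pigs each. Members were higher in high FE in 34 of 44 cases in males, with a median difference of 0.18, and in 30 of 44 in females, with a median of 0.09, against 48.7% and 46.9% of all probe sets. At an unadjusted p under 0.05 there were 9 members in males, all higher in high FE, against 5.61% of all probe sets (2.5% higher and 3.11% lower). In females there were 1 higher and 2 lower, against 3.67% of all probe sets (1.41% higher and 2.26% lower). No member passed within either sex in limma. In both sexes alike 26 of 44 were higher, against 26.8% of all probe sets, and 6 were lower, against 31.2%. The males' difference exceeded the females' for 32 members, against 51.9% of all probe sets, with a median interaction of 0.13. No member passed for the interaction in limma, where 0.00299% of all probe sets did, and 2 had an unadjusted p under 0.05, both with the greater difference in males, against 3.27% of all probe sets (1.81% greater and 1.46% smaller in males).

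The 2 members were NOP16 and NOC3L. NOC3L, a large subunit factor, had 4.67, 4.87 and 5.16 in high FE males against 3.77, 4.30 and 4.48 in low FE males, without overlap. In females it had 3.96, 4.70 and 4.82 in high FE and 4.49, 4.65 and 4.74 in low FE, with overlap. Its interaction was 0.85 ± 0.36 (SE), with an adjusted p of 0.998, and 0.49 with the mean of both its probe sets. NOP16 had 2.41, 2.54 and 2.71 in high FE males and 2.02, 2.18 and 2.42 in low FE males, and 2.03, 2.47 and 2.73 in high FE females against 2.47, 3.13 and 3.27 in low FE females. The groups overlapped in both sexes. Its interaction was 0.89 ± 0.34 (SE, adjusted p 0.998), at a level above the array background on 8 of 12 arrays.

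NPM1 had the opposite sign, with an interaction of -1.66 ± 0.84 (SE, adjusted p 0.998). It had 2.39, 3.28 and 3.54 in high FE males and 3.49, 3.90 and 4.26 in low FE males, and 3.40, 4.18 and 4.30 in high FE females against 2.14, 2.42 and 4.78 in low FE females. The single pig at 4.78, low FE pig 4, gave the low FE females their spread, and without it the interaction was -2.49, with an adjusted p of 1. NOP14, WDR43 and GNL3 had interactions of 0.46 ± 0.27 (SE), 0.52 ± 0.32 (SE) and 0.30 ± 0.20 (SE), each with an adjusted p of 0.998. That of WDR43 was 0.32 without high FE pig 6. GNL3 had 6.40, 6.61 and 6.63 in high FE males and 6.0, 6.16 and 6.33 in low FE males, without overlap. All 6 females lay between 6.09 and 6.22.

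**Figure D5:**
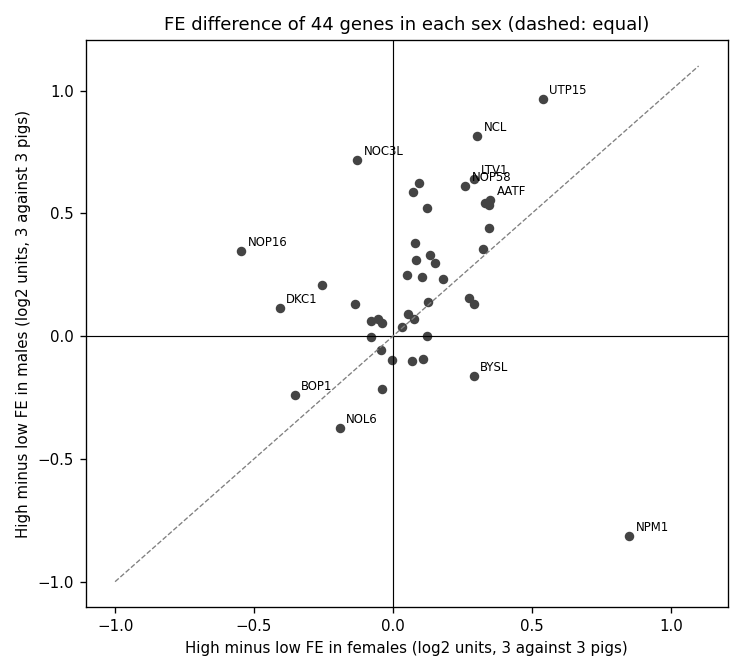
High minus low FE difference in males (y axis) against that in females (x axis), both in log2 units from 3 against 3 pigs, for the 44 members; the dashed line marks equal differences. Most points are positive in both sexes (26 of 44), and NPM1, at -0.81 in males and 0.85 in females, lies farthest from the line.

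Between males and females, 30 of 44 members had higher means in males, against 50.6% of all probe sets, with a median difference of 0.11 against 0.0031. None passed, where 0.021% of all probe sets did in limma, and 3 had an unadjusted p under 0.05, all higher in males, or 6.82% of members against 4.54% of all probe sets (2.31% higher and 2.23% lower in males). One of the 3 is POP4, which an earlier ranking of these data for sex had named, so its share is no support. Without it, 2 of 43 members, or 4.65%, had an unadjusted p under 0.05, a share near that of all probe sets. Of the 43, 29 were higher in males. These 43 were also chosen with earlier results of these data known. The count of 3, with POP4 in it, became 1 when either high FE pig 2 or low FE pig 1 was left out. It became 5 when either high FE pig 5 or low FE pig 3 was left out. For these fits the share of all probe sets at this threshold was not computed. No member separated the sexes without overlap, where 0.138% of all probe sets were higher in males without overlap.

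POP4 ranged from 5.49 to 6.19 in males, with a median of 5.95, and from 5.09 to 5.54 in females, with a median of 5.29. One male, at 5.49, lay within the female range. The difference was 0.58 ± 0.14 (SE). POP4 was chosen after an earlier ranking for sex, so this is a description. Its other probe set, with a mean of 3.70, differed by -0.21 and correlated with the brighter one at -0.69. With the mean of both probe sets the difference was 0.19.

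NOC2L, of the large subunit, ranged from 6.53 to 7.06 in males and from 6.32 to 6.63 in females, with overlap, and differed by 0.25 ± 0.11 (SE, adjusted p 0.975). GNL2 ranged from 6.51 to 7.12 in males and from 6.35 to 6.98 in females and differed by 0.24 ± 0.11 (SE, adjusted p 0.975), or by 0.13 with the mean of both probe sets. POLR1A, the largest subunit of RNA polymerase I, ranged from 5.69 to 5.93 in males and from 5.49 to 5.74 in females and differed by 0.21 ± 0.10 (SE, adjusted p 0.975). All 3 RNA polymerase I members were higher in males and none passed; their median was 0.18. GNL3 and NOP14 differed by 0.21 ± 0.11 (SE) and 0.28 ± 0.15 (SE), each with an adjusted p of 0.975. Of the 111 other pathway genes, 74 were higher in males (median 0.05), and 0 passed. Of the marker lists, 7 of 7 goblet cell, 6 of 7 Brunner gland and gastric-type and 13 of 18 proliferation markers were higher in males, and 10 of 11 T and NK cell and 9 of 10 pancreatic acinar markers were lower. The array background was 2.17 to 2.45 in males and 2.16 to 2.53 in females. The part of these in the sex difference was not tested.

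Probe sets of 1 gene did not always show the same difference. For 17 members the array held more than 1 probe set, with 24 further ones, of which 20 were tested and 13 had the sign of the brightest for FE. DKC1 had 5 probe sets. The brightest differed by -0.15 for FE, and the other 4 by 0.31, 0.54, 0.23 and 0.18, with unadjusted p of 0.0303, 0.03, 0.0635 and 0.225. NOP58 had 4, which differed by 0.44, 0.20, 0.04 and 0.49, all higher in high FE. The second probe sets of WDR43, DDX21 and DDX18 differed by 0.45, 0.52 and 0.17, in the direction of the brightest. Those of DDX10 differed by 0.02 and -0.34 against 0.36 for the brightest, with correlations to it of -0.18 and -0.20, and that of HEATR1 by -0.31. All 3 probe sets of NOL6 were lower in high FE, at -0.28, -0.21 and -0.39.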

How the data were processed

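Total RNA of duodenal mucosa was copied into DNA, fragmented, labelled with biotin and hybridised to 12 arrays, 1 per pig, per the labels' protocols. Per the submitters' processing notes, GCOS 1.1.1 was used. The deposited values were used as log2 values. That scale was read from the values (0.21 to 14.21), while the background correction, normalization and summarization behind it were not given in the sources used here. Gene symbols came from the platform annotation, which can be old: 26426 probe sets had 1 symbol, 0 several, and 21296 other than controls none.

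The 123 control probe sets were left out. The 33405 probe sets with a mean above the 30th percentile (2.37) were fitted by lmFit and eBayes of limma 3.58.1 (R 4.3.3) with FE and sex as terms, or with a mean for each combination of FE and sex for the interaction. Benjamini-Hochberg adjustment ran over all of them. The fits were tested on simulated data. The number of arrays limits the precision.

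Members, role groups and lists were chosen with earlier results of these data known. Named genes were, per contrast, the 6 members with the lowest unadjusted p, with AATF, TSR1 and POP4 always described. From each list of other pathway genes 2 were named, with MYC and MXD1 added. The other members are given by role. Pigs were numbered within each FE group in accession order, which pairs no pigs. Alternatives changed the filter, normalization, variance model, array weights, probe sets per gene, model terms and the set of pigs. The fit without high FE pigs 1 and 5 was added after the data were seen.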

Additional observations from a re-analysis of the deposited data

Results flagged for a closer look

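In 5 of 92 groups of 6 pigs, 1 pig lay apart from the 5 others by more than Dixon's critical value, 0.625 of the group's range, where chance alone flags about 1 group in 20. For LTV1, high FE pig 6 had 4.56 and the 5 others 5.76 to 6.12. For HEATR1 the same pig had 6.01 and the others 6.31 to 6.46. For NOP2, high FE pig 5 had 5.46 and the others 6.02 to 6.27. For WDR43, low FE pig 4 had 8.76 and the others 8.20 to 8.39, and for NOLC1 the same pig had 6.63 and the others 6.87 to 6.99. No member had FE directions in the 2 sexes that were opposite without overlap.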

How the results depend on the processing

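The count of members past the adjusted threshold was 0 for FE, sex and the interaction under every alternative run. The median FE difference lay between 0.12 and 0.19, that for sex between 0.09 and 0.14 and that of the interaction between 0.10 and 0.16, and 30 to 37 members were higher in high FE. For the 6 members with the lowest p in each contrast no difference changed sign. The other members and pathway genes were not recomputed singly, except with the array background as a term, where the FE difference of 9 members took the other sign, each at most 0.15 in size without the term. The 9 members at an unadjusted p under 0.05 for FE became 4 without the 2 arrays of lowest background, and 6 to 17 when 1 pig was left out, with 17 without high FE pig 6. The 3 for sex became 1 with quantile normalization and 1 to 5 when 1 pig was left out. The share of all probe sets at that threshold was not computed for these fits. The causes of the changes were not tested. For sex, leaving out the 4 pigs with the highest identifiers, all female, gave a median of 0.13. That fit kept high FE pig 4 and low FE pig 4 as its only females, so it is a weak check of the sex difference. The median correlation of members with the mean of the others was 0.33 after a fit on the array background. No paired analysis was possible because the labels link no high FE pig to a low FE pig. Signal near the array background limits NOP16, NPM1 and UTP15.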
